A study of Mus musculus with 6 samples.

Results

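The interferon regulatory factors (IRFs) were examined in 3 mouse cell lines, each after 4 h of interferon-beta (IFN-β) and unstimulated. The 8 genes Irf1, Irf2, Irf3, Irf4, Irf5, Irf7, Irf8 and Irf9 were taken through the array annotation, by every probe set that names 1 of them and no other gene. They were 8 of the 19938 genes measured in this way. They had 9 of the 35557 probe sets, since Irf1 had 2. The groups were NIH3T3 with IFN-β, NIH3T3 unstimulated, L929 with IFN-β, L929 unstimulated, RAW264.7 with IFN-β and RAW264.7 unstimulated, with 1 array each. NIH3T3 cells are fibroblasts from mouse embryos and L929 cells are fibroblasts from connective tissue. RAW264.7 is a macrophage line by its labels, derived from a virus-induced mouse tumour. The sources used here give no dose of IFN-β. Each array measured the RNA of many cells, so a larger share of responding cells and more transcript per cell cannot be told apart. The study asked which genes IFN-β regulates.

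Type I interferon binds the receptor made of Ifnar1 and Ifnar2, and the kinases Jak1 and Tyk2 then act on Stat2. Stat2 joins Irf9 in the complex ISGF3, in which Irf9 binds DNA, and ISGF3 acts at interferon-stimulated response elements (ISRE). Another element of interferon signalling is the gamma-activated site (GAS). All IRF proteins share a DNA-binding domain marked by conserved tryptophans. Irf3, Irf5 and Irf7 lie downstream of nucleic acid and Toll-like receptors and drive interferon and cytokine genes. Irf1 activates many interferon-induced genes, Irf2 competes with it for the same sites, and Irf4 and Irf8 are factors of lymphoid and myeloid cells.

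The promoters of Irf1, Irf2 and Irf8 are shown because they were the members in which a search found letters that match an ISRE or a GAS. The RefSeq tables (build GRCm38.p6) held 11 transcript starts for the 8 genes, and the 250 bases before each start were searched on both strands for 3 motifs. The ISRE core was taken as 2 copies of GAAA with 2 bases of any kind between them, the composite element of ETS and IRF factors as GGAA and GAAA with 2 bases between them, and the GAS as TTCNNNGAA, which reads the same on both strands. Capitals mark the matches. The windows lie at chr11:53769764-53770013 for Irf1, chr8:46739495-46739744 for Irf2 and chr8:120736108-120736357 for Irf8, all on the plus strand and written 5′ to 3′.
Irf1: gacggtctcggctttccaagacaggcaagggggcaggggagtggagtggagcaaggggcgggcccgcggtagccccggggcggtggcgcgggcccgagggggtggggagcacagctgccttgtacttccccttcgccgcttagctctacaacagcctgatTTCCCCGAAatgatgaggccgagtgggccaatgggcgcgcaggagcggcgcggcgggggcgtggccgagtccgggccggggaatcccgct
Irf2: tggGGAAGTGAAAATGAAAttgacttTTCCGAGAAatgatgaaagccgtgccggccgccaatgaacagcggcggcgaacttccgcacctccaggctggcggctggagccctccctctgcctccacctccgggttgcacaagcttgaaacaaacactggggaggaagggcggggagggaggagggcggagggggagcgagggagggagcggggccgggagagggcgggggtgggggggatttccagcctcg
Irf8: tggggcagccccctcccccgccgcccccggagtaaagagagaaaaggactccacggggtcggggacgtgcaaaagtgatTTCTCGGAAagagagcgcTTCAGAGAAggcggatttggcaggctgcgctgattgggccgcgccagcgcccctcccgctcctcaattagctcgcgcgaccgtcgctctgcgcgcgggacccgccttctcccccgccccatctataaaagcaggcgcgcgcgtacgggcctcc

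Irf1 had 1 GAS match, from base -90 to base -82 counted from the transcript start. Irf2 had a composite match from -247 to -238 that overlapped an ISRE match from -241 to -232, so that both share letters of the first run of capitals, and a GAS match from -224 to -216. Irf8 had 2 GAS matches, from -171 to -163 and from -153 to -145. The windows of Irf3, Irf4, Irf5, Irf7 and Irf9 and the second windows of Irf1 and Irf8 held no exact match. Bases past the start, bases further upstream and inexact forms of the motifs were not searched. Among all 32851 windows of this length, 2.98% held the ISRE core, 7.02% the GAS and 2.30% the composite. For the 116 genes that rose across the lines and had a window the shares of genes were 32.8%, 13.8% and 11.2%, against 3.40%, 7.71% and 2.56% of the 15614 measured genes with a window. The matches are descriptions of sequence, and no binding was measured here.

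**Figure D1:**
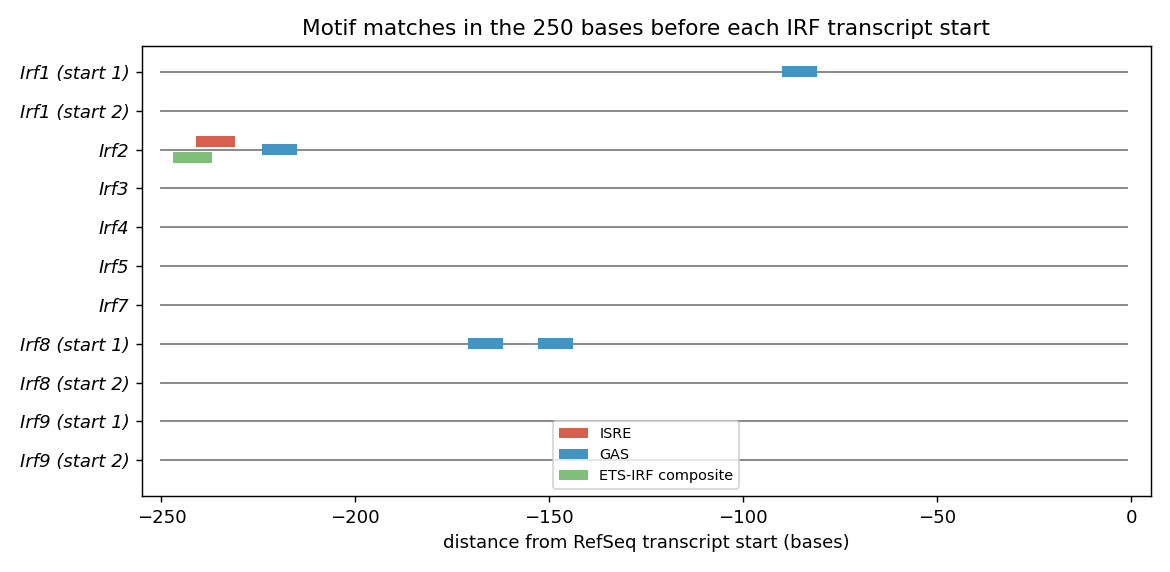
Motif matches in the 250 bases before each RefSeq transcript start of the 8 IRF genes. The x axis is the distance from the start in bases, each grey line is a searched window and coloured blocks are matches. Matches lie in 1 window each of Irf1, Irf2 and Irf8.

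The lines were first checked against markers. The 8 macrophage markers had log2 levels from 7.37 to 12.04 in stimulated and from 7.37 to 12.07 in unstimulated RAW264.7, against 3.02 to 6.02 in unstimulated NIH3T3 and 3.11 to 5.08 in unstimulated L929. Of these markers, Mpeg1, the macrophage pore-forming protein, was at 8.09 in stimulated and 3.91 in unstimulated L929. The 7 fibroblast markers measured had a median of 5.11 in unstimulated RAW264.7, against 11.36 in unstimulated NIH3T3 and 10.29 in unstimulated L929, but Thy1 and the lysyl oxidase gene Lox were low in L929, at 4.96 and 3.25. Lymphocyte and epithelial markers had medians between 3.62 and 5.43 on all 6 arrays. Over all genes the NIH3T3 arrays had a median log2 change of 0.17, the L929 arrays -0.05 and the RAW264.7 arrays -0.03. A change in NIH3T3 stands on top of that shift.

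IFN-β raised 4 of the 8 IRF genes across the lines. Irf7 rose by a mean log2 change of 3.96, Irf1 by 2.49, Irf9 by 2.22 and Irf2 by 1.23. The calls are at an adjusted p under 0.05 in limma, with the 3 lines as replicates, and 0.732% of all 19938 genes were called higher. No IRF gene was called lower in limma, nor was any other gene (0.0% of all genes), and at an unadjusted p under 0.05 there were 5 IRF genes higher and 0 lower, among 838 and 254 of all genes. The fifth was Irf8. The median of the mean log2 changes was 0.92 for the 8 IRF genes and 0.03 for all genes.

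**Figure D2:**
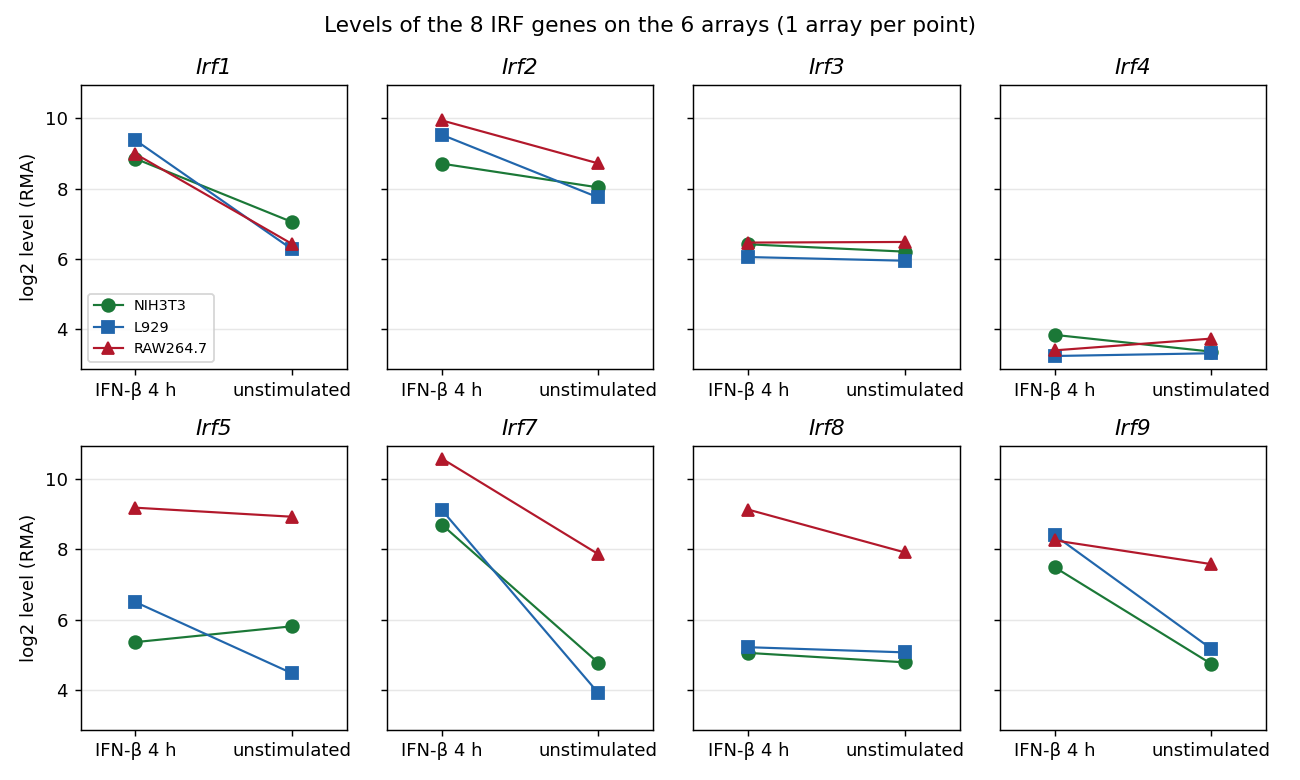
Log2 level (RMA, y axis) of each IRF gene in each line after 4 h of IFN-β (left) and unstimulated (right), with 1 array per point and a line joining the arrays of a cell line. The levels of Irf9 in stimulated cells lie between 7.49 and 8.40, while Irf8 is at 9.13 and 7.91 in RAW264.7 and does not exceed 5.21 in the other lines.

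Irf9 gives ISGF3 its DNA contact. Its log2 level (probe set 10415319) was 7.49 in stimulated and 4.74 in unstimulated NIH3T3, 8.40 in stimulated and 5.17 in unstimulated L929, and 8.26 in stimulated and 7.58 in unstimulated RAW264.7. Unstimulated RAW264.7 lay about level with stimulated NIH3T3, so the conditions overlapped across lines although each line was higher with IFN-β. NIH3T3 was 6.74-fold higher with IFN-β, L929 9.39-fold and RAW264.7 1.60-fold, with a mean log2 change of 2.22 ± 0.39 (limma SE, n = 3 lines) and an adjusted p of 0.0293. The SD of the 3 changes was 1.36. The limma SE is that of the mean and rests on a spread that empirical Bayes draws toward that of all genes. The call was lost without NIH3T3 (adjusted p = 0.268 in limma), without L929 (0.134), after quantile normalization (0.0874), with a robust trend in the variance (0.788), without the cell line in the model (0.99996) and with all probe sets tested together (0.443).

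Stat2, which joins Irf9 in ISGF3, did not have this difference in starting level. Its log2 level was 9.71 in stimulated and 6.32 in unstimulated NIH3T3, 9.60 in stimulated and 6.15 in unstimulated L929, and 8.51 in stimulated and 5.96 in unstimulated RAW264.7. Stat2 rose by a mean log2 change of 3.13 (limma adjusted p = 7.67e-05), with 2.55 in RAW264.7 alone. The receptor genes Ifnar1 and Ifnar2 had mean log2 changes of -0.19 and 0.07 and did not pass (adjusted p = 0.964 and 0.974).

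Irf7, the factor that carries the amplification of interferon production, had the largest mean change of the 8. Its log2 level (10569102) was 8.71 in stimulated and 4.77 in unstimulated NIH3T3, 9.12 in stimulated and 3.90 in unstimulated L929, and 10.59 in stimulated and 7.86 in unstimulated RAW264.7. All 3 stimulated arrays lay above all 3 unstimulated ones, which held for Irf7 and Irf1 among the IRF genes and for 4.85% of all genes. NIH3T3 was 15.4-fold higher with IFN-β, L929 37.2-fold and RAW264.7 6.61-fold, and these changes ranked 25, 32 and 49 among those of all genes in the same lines. The mean log2 change was 3.96 ± 0.36 (SE, n = 3 lines, limma adjusted p = 0.000545), with an SD between lines of 1.25. The call was lost with a robust trend (adjusted p = 0.239), with all probe sets tested together (0.0965) and without the cell line in the model (0.99996).

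Irf3, the related factor that is activated by phosphorylation rather than by synthesis, stayed within a narrow range. Its log2 level (10552812) was 6.41 in stimulated and 6.21 in unstimulated NIH3T3, 6.05 in stimulated and 5.95 in unstimulated L929, and 6.46 in stimulated and 6.48 in unstimulated RAW264.7. The 6 values spanned 0.53, and the mean log2 change was 0.10 ± 0.16 (SE, adjusted p = 0.967 in limma). The change in NIH3T3, 0.21, was close to the shift of all genes on those arrays and was -0.06 after median centring.

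Irf5 drives inflammatory cytokine genes in macrophages and dendritic cells. Its log2 level (10536898) was 5.36 in stimulated and 5.81 in unstimulated NIH3T3, 6.50 in stimulated and 4.47 in unstimulated L929, and 9.19 in stimulated and 8.93 in unstimulated RAW264.7. L929 was 4.08-fold higher with IFN-β, whereas the log2 changes were -0.45 in NIH3T3 and 0.26 in RAW264.7. The mean of 0.61 ± 0.37 (SE) had a limma adjusted p of 0.964 and an SD between lines of 1.28, and without L929 the mean was -0.10. The difference between L929 and NIH3T3, 2.48 on the log2 scale, was the widest such difference among the 8 genes and was not tested.

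**Figure D3:**
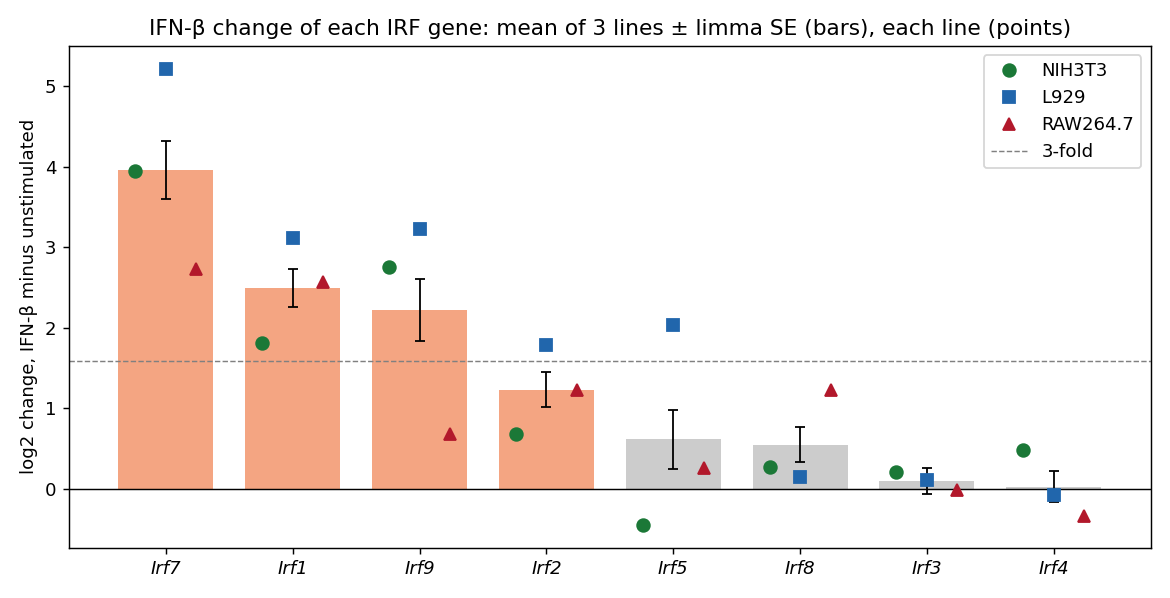
Log2 change with IFN-β (y axis, stimulated minus unstimulated) of the 8 IRF genes. Bars are the mean of 3 lines with the limma standard error, orange where the adjusted p is under 0.05 and grey otherwise, points are single lines and the dashed line marks 3-fold. Irf7 and Irf1 have all 3 points above the dashed line, and Irf2 and Irf5 have L929 alone above it.

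Irf1 and Irf2, the activator and its competitor at shared sites, rose together, with the larger change in Irf1. The log2 level of Irf1 (10376060) was 8.85 in stimulated and 7.05 in unstimulated NIH3T3, 9.38 in stimulated and 6.27 in unstimulated L929, and 8.99 in stimulated and 6.43 in unstimulated RAW264.7. These were changes of 3.49-fold, 8.62-fold and 5.92-fold, and the groups did not overlap. The mean log2 change was 2.49 ± 0.23 (SE, n = 3 lines, limma adjusted p = 0.000655). The call was lost with all probe sets tested together (0.0965) and without the cell line in the model (0.199).

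A second Irf1 probe set, 10385870, is annotated to 1 cDNA only. Its log2 level was 5.62 in stimulated and 5.14 in unstimulated NIH3T3, 6.12 in stimulated and 5.12 in unstimulated L929, and 5.27 in stimulated and 5.18 in unstimulated RAW264.7. Both probe sets had their largest change in L929, but the second had 0.09 in RAW264.7 where the first had 2.56. With the mean of both probe sets the Irf1 change was 1.51 across lines (adjusted p = 0.0048 in limma).

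The log2 level of Irf2 (10571705) was 8.71 in stimulated and 8.04 in unstimulated NIH3T3, 9.54 in stimulated and 7.75 in unstimulated L929, and 9.95 in stimulated and 8.72 in unstimulated RAW264.7. Each line was higher with IFN-β, by 1.60-fold, 3.45-fold and 2.34-fold, although stimulated NIH3T3 lay just below unstimulated RAW264.7. The mean log2 change was 1.23 ± 0.21 (SE, n = 3 lines, limma adjusted p = 0.0291). The call was lost after median centring (0.0685), after quantile normalization (0.0505), without L929 (0.145), with all probe sets tested together (0.352) and without the cell line in the model (0.99996).

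Irf8, a factor of the macrophage and dendritic cell lineages, was set apart by line more than by treatment. Its log2 level (10576034) was 5.05 in stimulated and 4.78 in unstimulated NIH3T3, 5.21 in stimulated and 5.07 in unstimulated L929, and 9.13 in stimulated and 7.91 in unstimulated RAW264.7. The change in RAW264.7 was 2.33-fold and ranked 181 among all genes of that line, against log2 changes of 0.27 and 0.15 in the fibroblast lines. Across lines the mean log2 change was 0.55 ± 0.22 (SE, unadjusted p = 0.0326, adjusted p = 0.830 in limma), so Irf8 did not pass.

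Irf4, a factor of lymphocytes and of some macrophages and dendritic cells, had a low signal on every array. Its log2 level (10404389) was 3.83 in stimulated and 3.36 in unstimulated NIH3T3, 3.23 in stimulated and 3.31 in unstimulated L929, and 3.39 in stimulated and 3.73 in unstimulated RAW264.7. The lower quartile of all probe sets lay between 3.34 and 3.62 on the 6 arrays, and the table gives no detection call, so these values may hold little more than background. The mean log2 change was 0.02 ± 0.19 (SE, limma adjusted p = 0.994), and its sign turned after median centring (-0.06) and quantile normalization (-0.09).

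Within a line, where 1 array stands on each side and no test is possible, IRF genes were counted at 3-fold, the rule of the series' design text. In NIH3T3 3 of 8 were at least 3-fold higher, Irf1, Irf7 and Irf9, against 0.476% of all genes. In L929 5 of 8 were, with Irf2 and Irf5 in addition, against 0.893%. In RAW264.7 2 of 8 were, Irf1 and Irf7, against 0.617%, and at 2-fold Irf2 and Irf8 joined them, against 1.14%. Irf1 and Irf7 were at least 3-fold higher in each line, as were 0.311% of all genes. In NIH3T3 Irf1 was under 3-fold after median centring (log2 change of 1.53) and with the mean of its probe sets (1.14), which left 2 of 8 there under both settings. With the mean of its probe sets Irf1 was under 3-fold in RAW264.7 as well. None of the 8 was 3-fold lower in a line, against 0.0401% of all genes for NIH3T3, 0.01% for L929 and 0.0% for RAW264.7.

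Unstimulated RAW264.7 already held at least 3-fold higher levels of 4 IRF genes than both fibroblast lines. Compared with the higher of the fibroblast lines, Irf5 was 8.71-fold higher, Irf7 8.56-fold, Irf8 7.21-fold and Irf9 5.32-fold. At this 3-fold rule 2.45% of all genes were higher in unstimulated RAW264.7. Irf2 was 1.61-fold higher in RAW264.7, Irf1 was lower there than in NIH3T3 (log2 difference of -0.62), and Irf3 and Irf4 were above the higher fibroblast line by log2 differences of 0.28 and 0.37. With IFN-β, Irf8 in RAW264.7 was 15.2-fold and Irf5 6.45-fold above the higher fibroblast line (2.31% of all genes passed 3-fold), while Irf7 was 2.76-fold above and Irf9 was below L929, by a log2 difference of -0.14. With 1 array per line and condition, neighbouring levels have no spread to be compared with and none of these differences was tested.

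The levels of Irf9 and Irf7 were thus closer between the lines after IFN-β. The range over the 3 lines was 0.91 in stimulated and 2.84 in unstimulated cells for Irf9, and 1.88 in stimulated and 3.96 in unstimulated cells for Irf7. For Irf8 it was 4.08 in stimulated and 3.13 in unstimulated cells, and for Irf2 1.23 and 0.97. The range was narrower with IFN-β for 5 of the 8 IRF genes, for 73 of the 146 genes called higher and for 38.6% of all genes.

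The response of RAW264.7 was then tested against that of the fibroblast lines. Irf9 changed less in RAW264.7, by 0.68 on the log2 scale against 2.99 as the mean of the fibroblast lines, a difference of -2.32 ± 0.49 (SE, limma adjusted p = 0.00189). A smaller change in RAW264.7 was called for 0.155% of all genes and a larger one for 0.0802%. Irf7 had 2.73 against 4.58, a difference of -1.85 that missed the threshold (adjusted p = 0.0684), and Irf8 had 1.22 against 0.21, a difference of 1.01 (adjusted p = 0.99996, unadjusted 0.0404). For Irf1 and Irf2 the differences were 0.11 and -0.01 ± 0.49 (SE), and for Irf3, Irf4 and Irf5 they lay between -0.53 and -0.17. The SE is the same for every gene, since the fit estimates it once, from NIH3T3 and L929 over all genes, and RAW264.7 had 1 pair of arrays. The call of Irf9 was lost after median centring (difference -2.16, adjusted p = 0.440) and quantile normalization (-2.33, adjusted p = 0.099). For Irf7 the difference was -1.69 after median centring (limma adjusted p = 0.99995) and -1.76 after quantile normalization (0.99997).

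**Figure D4:**
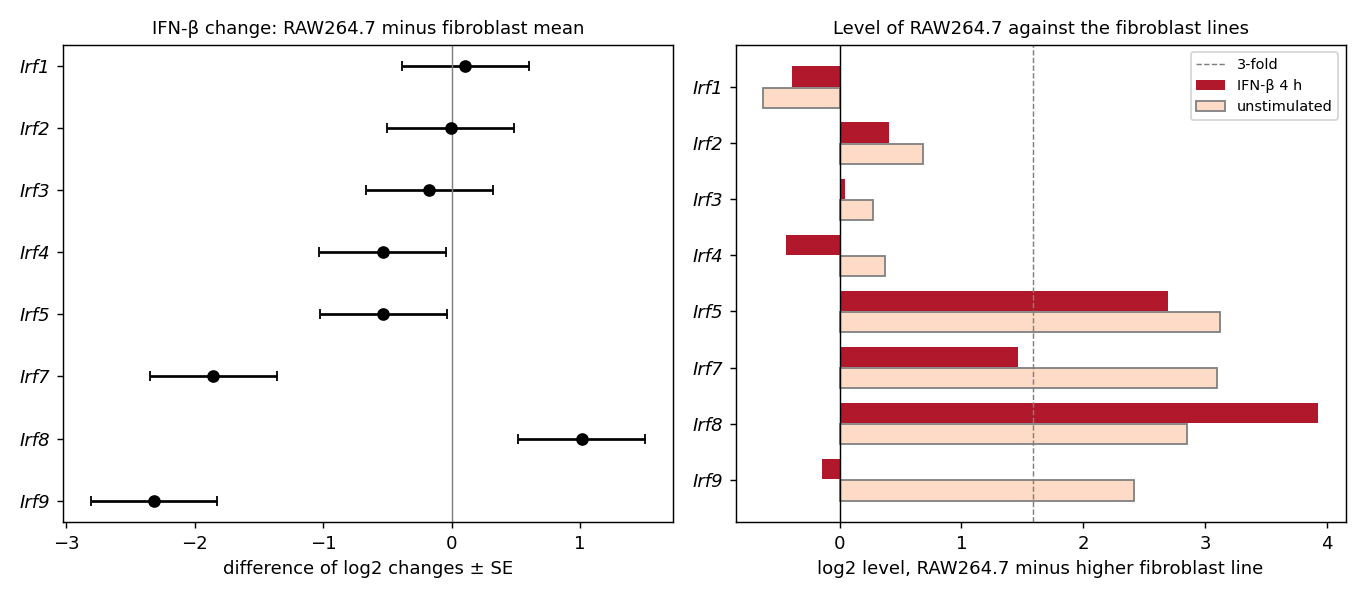
RAW264.7 against the fibroblast lines for the 8 IRF genes. Left, difference of the log2 change with IFN-β (RAW264.7 minus the mean of NIH3T3 and L929) with its standard error. Right, log2 level of RAW264.7 minus that of the higher fibroblast line with IFN-β (dark) and unstimulated (pale), with the dashed line at 3-fold. Irf9 has a difference in change of -2.32, and its excess of 2.41 in unstimulated RAW264.7 is -0.14 with IFN-β.

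Other genes of the pathway were read from 5 lists, chosen with earlier results of these data known, so their counts are descriptions. Of 9 genes of the receptor, its kinases and the partners of ISGF3, 2 rose and 0 fell, against 0.732% of all genes higher. They were Stat2 and Usp18, the enzyme that also dampens the receptor. Usp18 had a mean log2 change of 5.56, with 6.27 in NIH3T3 and 7.42 in L929. RAW264.7 had 2.98, and its unstimulated level of 8.37 there stood against 3.83 and 4.03 in NIH3T3 and L929. Socs1 and Stat3 had mean log2 changes of 0.78 and 0.76 and did not pass (limma adjusted p = 0.203 and 0.101). The median of the list was 0.18, against 0.03 for all genes.

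Of 13 genes that activate Irf3, Irf5 and Irf7, 1 rose and 0 fell, beside 0.732% higher among all genes. This was Myd88, the adaptor between Toll-like receptors and Irf5 and Irf7, with a mean log2 change of 1.27 (limma adjusted p = 0.0231). Sting1, the adaptor of cytosolic DNA sensing, had 0.77 (adjusted p = 0.0843), Ikbke, a kinase of Irf3 and Irf7, 0.45 and Unc93b1, which escorts endosomal Toll-like receptors, 0.43. The median was 0.07.

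Of 10 partners, corepressors and ligases of IRF proteins, 2 rose and 0 fell, with the same 0.732% for all genes. Trim21, a ubiquitin ligase that acts on IRF proteins, rose by 3.37 (limma adjusted p = 0.00128), by 2.06 in RAW264.7 against 3.68 in NIH3T3 and 4.38 in L929. Batf2, of the AP-1 family that pairs with Irf4 and Irf8, rose by 2.65 (adjusted p = 0.0228), with 2.63 in RAW264.7 against 1.08 in NIH3T3 and 4.25 in L929. Irf2bpl, related to the Irf2 corepressors, had a mean change of -0.37, Batf one of 0.27 and Rbck1, a ubiquitin ligase component, one of 0.27, and none of them passed. Spi1, the ETS partner of Irf4 and Irf8, was at a log2 level of 9.57 in stimulated and 9.67 in unstimulated RAW264.7 and between 3.70 and 4.08 in the fibroblast lines.

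Of 14 type I interferon genes measured, 0 passed in limma (0.732% of all genes were higher), and 3 had an unadjusted p under 0.05, as did 838 genes higher and 254 lower of all 19938. Ifna12, Ifna13 and Ifna16 had the largest mean log2 changes of those that did not pass, 0.64, 0.49 and 0.39, and the median was 0.06. The log2 levels of Ifna12 lay between 2.20 and 3.37 and those of Ifna13 between 2.90 and 3.77, about or below the lower quartile of all probe sets, so these values too may hold little more than background. These genes are close copies, and probe sets may share signal among them. Of 13 genes linked to Irf1 in earlier work, 6 rose and 0 fell, against 0.732% of all genes higher, with a median of 1.83 against 0.03 for all genes. This list too was chosen with earlier results of these data known. Whether any of these rises depended on Irf1 was not tested. The immunoproteasome subunits Psmb9 and Psmb10 rose by 1.83 and 2.49, the peptide transporter Tap1 by 2.94, the cytokine gene Il15 by 2.51, the checkpoint ligand Cd274 by 2.12 and the guanylate-binding protein Gbp3 by 5.68. Cxcl9, a T cell chemokine, had a log2 change of 1.01 in RAW264.7, against 0.83 in NIH3T3 and 5.43 in L929 (adjusted p = 0.379), Psmb8 had a mean of 1.30 and Casp1 one of 0.95, without passing.

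The genes whose pattern over the 6 arrays was most like that of an IRF gene were found by the Euclidean distance of the 6 log2 levels, each gene centred on its own mean, for the 6 members that ranged over at least 1. Parp11 was closest to Irf1, at a distance of 0.23, with log2 changes of 2.64 in RAW264.7 and, for the fibroblasts, 1.81 in NIH3T3 and 3.27 in L929. Il15 (0.59) and Slfn9 (0.69) followed. Rnf19b (0.32), Nampt (0.45) and Psme2 (0.50) were closest to Irf2. Ddx58 (1.10), Parp14 (1.33) and Parp9 (1.41) were closest to Irf7. Each of the 3 was higher in unstimulated RAW264.7 than in either unstimulated fibroblast line. The distance takes in those levels, so this is part of the match. Bst2 (0.87), Eif2ak2 (1.03) and Psmb10 (1.10) were closest to Irf9. Bst2 had a log2 change of 1.08 in RAW264.7 against 3.84 in NIH3T3 and 3.52 in L929.

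Tagap (0.55), Cxcl16 (0.57) and Msr1 (0.62), a macrophage scavenger receptor, were closest to Irf8. Their high levels in RAW264.7 in both conditions are part of that match. Tmem154 (1.21), Myo1f (1.21) and Sorl1 (1.28) were closest to Irf5. Their changes in L929 lay between 0.41 and 0.68, where Irf5 had 2.03. With 6 arrays and 19938 genes a close pattern is easily found, and the distances are given as a description.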

How the data were processed

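Total RNA of 3 mouse cell lines, each with 4 h of IFN-β and unstimulated, was measured on 1 array per group, after labelling with Affymetrix's WT kit, per the labels. The deposited log2 values were made by the authors with RMA, per the submitters' processing notes. The sources used here state no version, settings or genome build, and the values (0.88 to 14.74) show the log base. The annotation named 1 gene for 21789 of 35557 probe sets, several for 1621 and none for 12147. Symbols were checked by Entrez ID, which matched for 21698 probe sets. For the 999 genes with several probe sets the brightest over all arrays was used. No filter was applied.

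Across lines, limma 3.58.1 (R 4.3.3) fitted treatment with the cell line as a block, by empirical Bayes with 2 residual degrees of freedom and Benjamini-Hochberg adjustment over 19938 genes. The line pairs the arrays. The 3 lines stand for replicates. The p-values across lines rest on their spread after empirical Bayes drew it toward that of all genes, with 7.87 prior degrees of freedom. An interaction term tested RAW264.7 against both fibroblast lines (1 residual degree of freedom). Both fits were tested on simulated data with 200 changed genes. For the test across lines the same change was added to each line. The variances of both simulations were drawn as the fit across lines had estimated them. The rates therefore say little about genes whose changes differ between lines as much as those of Irf9 (SD of 1.36). Across lines 64% of log2 changes of 1 and 100% of changes of 2 were recovered, with 10 false calls. For the interaction 62% of log2 differences of 2 and 98% of differences of 3 were recovered, with 15 false calls. In the data the interaction called 16 genes with a larger and 31 with a smaller change in RAW264.7. Alternatives were the mean over probe sets, median centring, quantile normalization, a robust variance trend, a filter at the median level of 5.32, all probe sets tested, no block, each line left out, other thresholds. The genes named were all members, per list every called gene and up to 3 others with the largest mean change, and the 3 nearest patterns; Ifnar2, Spi1, Mpeg1, Thy1 and Lox were named outside that rule after their values were seen. The members and lists were chosen with earlier results of these data known. Other steps used pandas 2.3.3, numpy 2.4.6 and matplotlib 3.10.9 in Python 3.11.15. The number of arrays limits the precision.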

Additional observations from a re-analysis of the deposited data

Results flagged for a closer look

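Irf9 was singled out because its change with IFN-β differed between RAW264.7 and the fibroblast lines in a test of that difference, by -2.32 on the log2 scale. Its unstimulated level in RAW264.7 stands beside that value in the results, and the part of the starting level in the difference was not tested. Irf3 was singled out because its change in RAW264.7, -0.018, had the opposite sign to the changes in NIH3T3 and L929, 0.21 and 0.10. After median centring the change was 0.0098 in RAW264.7, against -0.06 in NIH3T3 and 0.11 in L929. Without centring, the difference between RAW264.7 and the fibroblast lines was -0.17 ± 0.49 (SE, limma adjusted p = 0.99996).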

How the results depend on the processing

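Of 8 IRF genes, 4 were called across lines. The count was 2 after quantile normalization (Irf1 and Irf7) and 2 with a robust trend in the variance (Irf1 and Irf2). It was 0 without the cell line as a block and 0 with all probe sets tested together in limma. In each of the last 2 fits 4 had an unadjusted p under 0.05. All genes were not counted at that threshold in these fits, so the 4 have no background to be read against. With 1 line left out the count called ranged from 2 to 4, the lowest without L929. Over all genes 146 were called higher, against 119 after quantile normalization, 114 with a robust trend and 2 without the block. There were 14 probe sets called higher with all probe sets tested. Without NIH3T3 142 genes were called higher, without L929 116 and without RAW264.7 218. Irf1 passed in 8 of 10 alternative fits, Irf7 in 7, Irf2 in 5 and Irf9 in 4, and Irf3, Irf5 and Irf8 in 0 of 10. These fits share arrays and differ in kind. Those with 1 line left out rest on 2 lines, and the fit without the block ignores the pairing. The tallies are therefore descriptions and not equal votes. The mean change of Irf4 was -0.058 after median centring and -0.0904 after quantile normalization, and with 1 line left out it lay between -0.206 (without NIH3T3) and 0.20. That of Irf5 lay between -0.0967 (without L929) and 1.14. Of the IRF differences between RAW264.7 and the fibroblast lines, 0 were called after median centring and 0 after quantile normalization in limma. In each, 3 had an unadjusted p under 0.05, again with no count of all genes to read it against. The difference of Irf1 was -0.27 with the mean of probe sets and -0.0364 after quantile normalization, and that of Irf2 0.15 after median centring. The cause of these moves was not tested. In NIH3T3 2 IRF genes were at least 3-fold higher after median centring and 2 with the mean of probe sets, against 3, since Irf1 fell short. In RAW264.7 1 IRF gene was at least 3-fold higher with the mean of probe sets and 4 were at least 2-fold higher. The count of IRF genes at least 3-fold higher in unstimulated RAW264.7 than in both fibroblast lines was 4 under each scaling. Without rescaling, 2.45% of all genes passed that rule. A single array per group limits every value within a line.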
